A study of Mus musculus with 27 samples.

Results

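The enrichment experiment of this series compared CD11b+ cells sorted from 2 regions of the mouse brain, and all 6 libraries of the hippocampus (HC) were set here against all 6 libraries of the prefrontal cortex (PFC). These 12 libraries, of 27 in the series, were taken by their region label alone. Each region had 3 libraries of stressed mice given vehicle (VEH) and 3 of stressed mice kept in environmental enrichment (EE), and both treatments had equal weight in the comparison. All the animals carried the strain label C57BJ6 and all had gone through the CUMS protocol, a chronic schedule of unpredictable mild stressors, so no unstressed group belongs to this comparison. Environmental enrichment is housing with added objects and space. The labels give neither age nor sex. They do not say whether replicates are separate animals, whether cells of several animals were pooled, or whether an HC and a PFC library came from the same mouse, so p-values measure the spread between these libraries, which may be technical. Of 55421 identifiers in the count table, 16091 had at least 10 counts in at least 3 libraries and were tested.

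CD11b is the product of Itgam and pairs with CD18 to form the complement receptor CR3. Microglia, the resident macrophages of the brain, carry it, and so do border-associated macrophages, monocytes and neutrophils, so a CD11b gate holds all of them. Microglia depend on CSF1R signalling and sense their surroundings through receptors such as P2RY12 and CX3CR1, and microglia of different brain regions are known to differ in density, shape and parts of their expression programme.

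Library depth ran from 19.5 M to 23.9 M counts (M for 1e6). Levels are given as CPM, the counts of a gene per 1e6 counts of the scaled library size, and differences as log2 of HC over PFC. The region label accounted for 6.85% of the variance of log2 CPM over the genes tested, against 14.7% for the treatment label and 67.6% between libraries within the 4 groups of region and treatment. Any label that splits the libraries takes some share of the variance, so 6.85% alone does not show a regional effect. The first principal component held 26.6% of the variance and 3.94% of it lay between regions; its extremes were PFC EE 1 (−70.95) and HC EE 1 (47.63). HC VEH 3 stood alone on the fourth component (54.9, against −21.2 to 16.15 in the other libraries). Pearson correlations of log2 CPM between 2 libraries had a median of 0.9655 within a region and 0.9714 between regions, so libraries of one region were no closer to each other than to those of the other region.

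No gene passed an adjusted p of 0.05 in the comparison of HC with PFC (edgeR quasi-likelihood test, 0% of genes called). The smallest adjusted p was 1 after rounding. At an unadjusted p under 0.05 were 336 genes, 2.09% of those tested, of which 206 were higher and 130 lower in HC. That share is below the 0.05 that such a threshold passes on average where no gene differs. DESeq2 called 0 genes too, with a smallest adjusted p of 0.158 and 421 genes at an unadjusted p under 0.05. The median log2 difference over all genes was −0.013, and 46.5% of genes lay above 0.

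The width of the intervals shows how large a regional difference, averaged over both treatments, these libraries leave room for. Intervals of the difference within a single treatment were not summarised in this way. Of 8706 genes with a mean of at least 10 CPM, 8620 (99%) had a 95% interval that lay wholly within a 2-fold difference in either direction, and 8115 (93.2%) one within 1.5-fold. The median half-width of the interval among them was 0.229 on the log2 scale. Over all genes tested, many of them at a few counts per library, 73.8% had an interval within 2-fold. Of the 8706 genes, 12 had an estimate beyond 1.5-fold and 6 beyond 2-fold. The 6 were Gm24187, Mir6236, Gm23935, CT010467.1 and Lars2, all higher in HC, and Vim, the intermediate filament vimentin, which was lower. They are named because of their size, after their values were seen. The Vim difference of −1.06 (95% interval −2.50 to 0.38) went with 2 PFC libraries, PFC VEH 1 at 239 and PFC EE 1 at 136 CPM, while the other 4 PFC libraries lay between 17.9 and 46.9 and the HC libraries between 25.3 and 59.7 CPM.

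**Figure D1:**
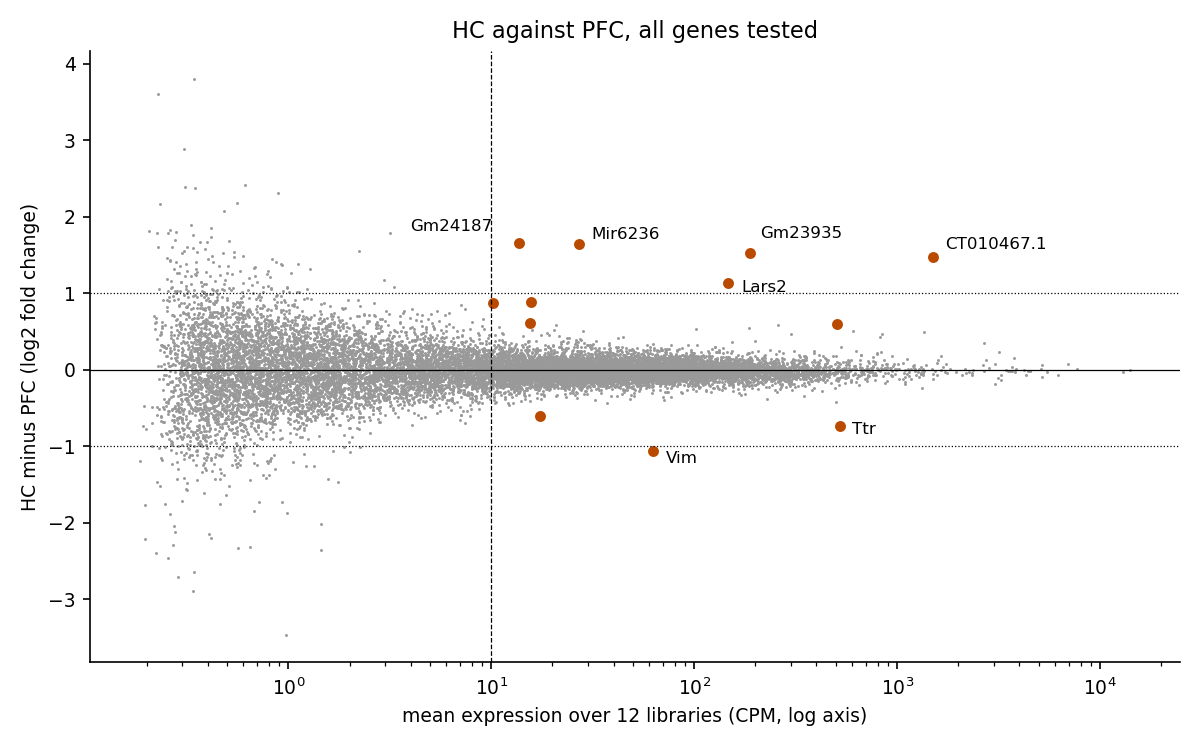
Difference between HC and PFC (log2 fold change, vertical axis) against the mean level over 12 libraries (CPM, log axis) for 16091 genes, 1 point each. Dotted lines mark a 2-fold difference, the dashed line marks 10 CPM, and the 12 larger points are genes right of that line with an estimate beyond 1.5-fold; to the right of it nearly all points lie close to 0.

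The genes that define microglia lay close together in the 2 regions. Of 20 microglial identity genes, all tested, 9 were higher and 11 lower in HC, with a median log2 difference of −0.0022 against −0.013 over all genes, and 0 had an unadjusted p under 0.05. For 19 of the 20 the 95% interval lay within a 2-fold difference. Their summed level was 66970 to 84920 CPM in HC and 60290 to 93500 CPM in PFC libraries, so the sorted cells carried their defining markers in every library. In bulk RNA, fewer cells of a type and less RNA per cell cannot be told apart.

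Cx3cr1, the fractalkine receptor, was at 7112, 7496 and 8734 CPM in the lowest, median and highest HC library and at 6781, 7524 and 8963 CPM in PFC. The means were 7730 ± 707 in HC and 7674 ± 737 in PFC (SD, n = 6 each), a log2 difference of 0.01 with a 95% interval of −0.18 to 0.21. Itgam, which encodes the protein the cells were sorted on, was at 478 to 628 CPM in HC and 461 to 580 CPM in PFC. Its log2 difference was 0.07 (95% interval −0.12 to 0.26), and the regions overlapped. Csf1r, the receptor for the survival factor CSF1, was at 10700 to 13920 CPM in HC and 11200 to 14590 CPM in PFC, with a difference of −0.03 (95% interval −0.22 to 0.17). Tmem119, a membrane protein restricted to microglia among brain cells, was at 2476 to 3658 CPM in HC and 2866 to 4178 CPM in PFC, with a difference of −0.07 (95% interval −0.31 to 0.17). None of these 4 intervals reached 1.5-fold.

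The purinergic receptor P2ry12, which steers microglial processes towards ATP, was at 2541 to 5134 CPM in HC and 2570 to 3749 CPM in PFC. Its difference of 0.23 (95% interval −0.06 to 0.53, edgeR unadjusted p = 0.111) was 0.11 without HC VEH 3, the HC library with the highest value. Gpr34, a lysophosphatidylserine receptor of microglia, had the smallest p of the list, with a difference of 0.51 (95% interval −0.09 to 1.11, edgeR unadjusted p = 0.0875). HC VEH 3 was again highest, at 1520 CPM, while the other HC libraries lay between 403 and 810 CPM and PFC between 372 and 735. The purinergic list as a whole had 7 of 12 genes above 0, a median of 0.08 and 0 genes at an unadjusted p under 0.05.

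**Figure D2:**
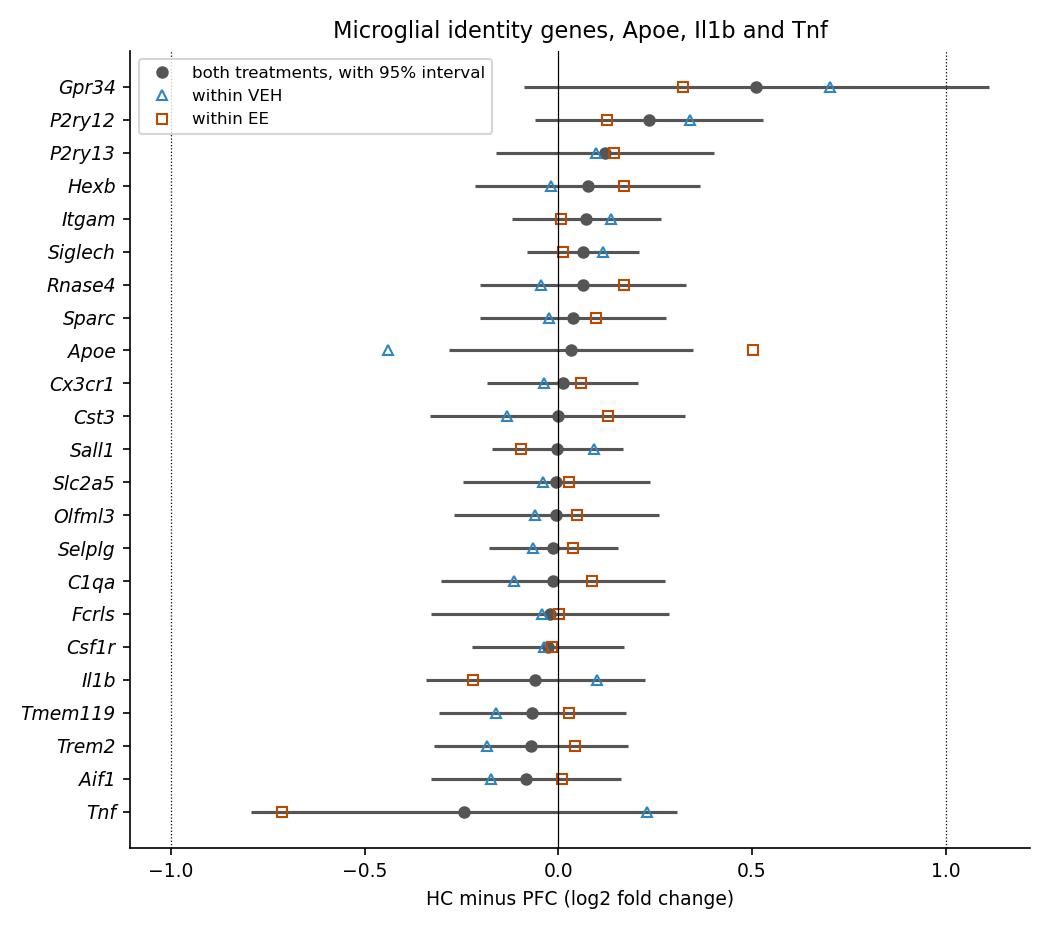
HC minus PFC (log2 fold change, horizontal axis) for the 20 microglial identity genes and for Apoe, Il1b and Tnf. Filled circles with bars are the estimate over both treatments and its 95% interval, open triangles the difference within VEH and open squares that within EE; dotted lines mark a 2-fold difference, which only the interval of Gpr34 crosses.

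Transcription factors and signalling receptors of microglia showed similarly small differences. Of 20 microglial transcription factors 5 were above 0, with a median of −0.04, and all 20 intervals lay within 2-fold; Nr3c1, the glucocorticoid receptor, had the smallest p (0.14, 95% interval −0.03 to 0.32). Of 12 Fc receptor and ITAM signalling genes 3 were above 0 (median −0.03), and again all 12 intervals lay within 2-fold. The 22 Toll-like receptor and adaptor genes were also all within 2-fold, with 13 above 0 and a median of 0.02. Tlr7, a sensor of single-stranded RNA, was at 263 to 465 CPM in HC and 263 to 318 CPM in PFC. Its difference was 0.25 (95% interval −0.01 to 0.51). The 15 TGF-beta pathway genes tested had a median of −0.0033, and the 19 integrin and adhesion genes one of 0.04.

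Among genes of microglial states, 18 disease-associated genes had a median of 0.04 with 13 above 0, and 25 lysosomal genes a median of −0.0086 with every interval within 2-fold. Apoe, the lipid carrier that rises in disease-associated microglia, averaged 1738 ± 669 CPM in HC and 1621 ± 274 CPM in PFC (SD, n = 6 each), a difference of 0.03 (95% interval −0.28 to 0.35). Clec7a, a beta-glucan receptor, differed by 0.22 (95% interval −0.15 to 0.58) and Spp1, osteopontin, by 0.37 (95% interval −0.28 to 1.02). Phagocytic and TAM receptors (17 genes tested, 10 above 0) had a median of 0.02. For complement, 9 of 17 genes were above 0 and the median was 0.03.

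Inflammatory genes gave no called difference either. Il1b averaged 60.1 ± 14.3 CPM in HC and 64.2 ± 21.3 CPM in PFC (SD, n = 6 each), a difference of −0.06 (95% interval −0.34 to 0.22). Tnf was at 30.8 to 53.5 CPM in HC and 18.2 to 100.3 CPM in PFC, a difference of −0.24 (95% interval −0.79 to 0.31), and the value of 100.3 belonged to PFC EE 1. In the list of inflammatory cytokines and NF-kB genes 7 of 22 were above 0 (median −0.08). Nlrp3, the sensor of an inflammasome, was its 1 member at an unadjusted p under 0.05, with 134 to 151 CPM in HC and 137 to 174 CPM in PFC (difference −0.15, 95% interval −0.30 to −0.0083). The 17 chemokine genes had a median of 0.03 and the 25 type I interferon response genes one of −0.11, with 5 above 0; the latter ran from −0.23 without HC VEH 1 to 0.03 without PFC EE 2. Mx1, an interferon-induced antiviral GTPase, was at 7.01 to 11.9 CPM in HC and 7.74 to 17.0 CPM in PFC, a difference of −0.44 (95% interval −0.88 to 0.0012).

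Antigen presentation genes had medians below 0. Of 15 MHC class I presentation genes 2 were above 0 (median −0.15), and of 9 MHC class II genes 1 was (median −0.31), each list with 1 member at an unadjusted p under 0.05. Ciita, the transactivator of MHC class II genes, was at 3.10 to 10.9 CPM in HC and 3.46 to 15.4 CPM in PFC (difference −0.69, 95% interval −1.35 to −0.03). H2-Q4, a class I gene with close relatives among which reads may be split, averaged 42.1 ± 4.58 CPM in HC and 55.0 ± 19.8 CPM in PFC (SD, n = 6 each; difference −0.33, 95% interval −0.60 to −0.06). The class I median was −0.23 without HC VEH 1, −0.09 without PFC EE 2 and −0.08 without HC VEH 3. The class II median was −0.50 without PFC EE 3 and −0.04 without PFC EE 2, which held the highest summed class II level of all libraries (2284 CPM, against 671 to 1506 CPM in the other PFC libraries and 720 to 1715 CPM in HC).

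Housekeeping and metabolic programmes were close to 0 too. The medians were −0.04 for 17 glycolysis genes, −0.04 for 30 nuclear genes of oxidative phosphorylation and 0.0023 for 20 proteasome genes, and every interval in these lists lay within 2-fold. The 30 cytosolic ribosomal protein genes had a median of −0.11 with 2 above 0, which ran from −0.27 without HC VEH 1 to 0.17 without PFC VEH 1. Of 23 cholesterol and fatty acid synthesis genes 15 were above 0 (median 0.04). Scd2, a stearoyl-CoA desaturase, was the 1 at an unadjusted p under 0.05, at 166 to 362 CPM in HC and 175 to 259 CPM in PFC (difference 0.26, 95% interval 0.02 to 0.50). Ch25h, which makes 25-hydroxycholesterol, stood lower in HC at 0.19 to 1.30 CPM against 0.78 to 2.13 CPM in PFC, a difference of −1.21 (95% interval −2.13 to −0.29, edgeR unadjusted p = 0.0137), at a level near 1 CPM. Cell cycle genes (25 tested, 11 above 0, median −0.0085), iron handling genes (11 tested, 4 above 0, median −0.03), microglial growth factors (13 tested, 6 above 0, median −0.04), circadian clock genes (18 tested, 6 above 0, median −0.04), glucocorticoid-responsive genes (19 tested, 7 above 0, median −0.06) and heat shock chaperones (15 tested, 10 above 0, median 0.0081) held 0 members at an unadjusted p under 0.05.

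The largest differences at levels above 10 CPM were in non-coding RNA features of a repeated kind, chosen after their values were seen. CT010467.1, annotated as ribosomal RNA at chr17:39846353-39848827 (GRCm38), is one; the libraries were enriched for polyadenylated RNA, so ribosomal RNA is what such a preparation leaves behind. Gm23935, Gm24187, Gm24270 and Gm24245 are annotated as miRNA genes at chr16:11144125-11144181, chr13:9834469-9834525, chr9:56223715-56223771 and chr4:139338304-139338360. Their sequences in the GENCODE M21 transcripts are shown because 3 of these 4 features cannot be told apart by sequence; capitals mark the 1 base at which Gm24187 differs (G11A, counted from the 5′ end, with the base of Gm23935 first).
Gm23935: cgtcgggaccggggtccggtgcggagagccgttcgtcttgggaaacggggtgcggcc
Gm24270: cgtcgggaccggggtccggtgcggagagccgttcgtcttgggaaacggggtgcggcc
Gm24245: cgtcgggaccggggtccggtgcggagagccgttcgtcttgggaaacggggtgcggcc
Gm24187: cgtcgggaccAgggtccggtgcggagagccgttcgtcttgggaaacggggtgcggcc
Among 141767 annotated transcripts the first sequence was held by these 3 features alone and the second by Gm24187 alone. Sequence outside these annotated transcripts was not searched, so further copies elsewhere in the genome, from which reads could also come, were not looked for. Mir6236, at chr9:110281287-110281409, is a further feature of this group, and its mature miRNA in RefSeq (GRCm38.p6, chr9:110281353-110281371, plus strand) reads as follows, with the seed, bases 2 to 8, in capitals.
mmu-miR-6236: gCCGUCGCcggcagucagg
The counts are of the whole annotated features in an mRNA library, not of mature miRNAs, and the split of reads between identical copies depends on the counting.

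CT010467.1 was at 3801, 914 and 2658 CPM in HC VEH 1, 2 and 3 and at 1247, 3343 and 863 CPM in HC EE 1, 2 and 3. In PFC it was at 1267, 739 and 1648 CPM in VEH 1, 2 and 3 and at 601, 502 and 333 CPM in EE 1, 2 and 3. HC VEH 1, HC EE 2 and HC VEH 3 were thus the highest libraries, the other 3 HC libraries lay within the range of PFC VEH, and the PFC EE libraries were the lowest. The log2 difference was 1.47 (95% interval 0.52 to 2.41, edgeR unadjusted p = 0.00606), with 2138 ± 1297 CPM in HC and 848 ± 504 CPM in PFC (SD over 6 libraries each).

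The same 3 HC libraries were the highest for Gm23935, Gm24187, Mir6236 and Lars2. Gm23935 averaged 276 ± 181 CPM in HC and 101 ± 49.4 CPM in PFC (SD, n = 6 each), a difference of 1.53 (95% interval 0.53 to 2.52). Gm24270 and Gm24245, with the identical sequence and length, were at far lower levels, 4.90 and 3.21 CPM on average in HC, and differed by 1.79 (95% interval 0.83 to 2.74) and 1.55 (95% interval 0.60 to 2.50). Gm24187 differed by 1.66 (95% interval 0.61 to 2.71). Mir6236 averaged 40.8 ± 29.9 CPM in HC and 13.1 ± 6.34 CPM in PFC (SD, n = 6 each), a difference of 1.65 (95% interval 0.54 to 2.75).

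Lars2, the mitochondrial leucyl-tRNA synthetase gene at chr9:123366927-123462666, was at 201 ± 116 CPM in HC and 93.2 ± 35.0 CPM in PFC (SD, n = 6 each). Its log2 difference was 1.13 (95% interval 0.28 to 1.98). Among genes with a mean of at least 10 CPM it was the 1 annotated as protein-coding with an estimate above 2-fold in this direction. HC VEH 1, HC EE 2, HC VEH 3 and PFC VEH 3 were, in that order, its highest libraries, as for CT010467.1 and Gm23935. Which part of the annotated gene the reads came from was not tested, so a difference in its mRNA is not shown. Rn7sk, the 7SK small nuclear RNA that restrains transcription elongation, was at 11.3 to 34.0 CPM in HC and 4.17 to 31.7 CPM in PFC (0.89, 95% interval 0.24 to 1.53). Within EE every HC library lay above every PFC library for each of CT010467.1, Gm23935, Gm24187, Mir6236, Lars2 and Rn7sk except for Lars2 in HC EE 3 (81.7 CPM), which was below PFC EE 1 (87.5 CPM), and for Mir6236 in HC EE 3 (11.1 CPM), which was below PFC EE 1 (11.5 CPM). Within VEH the regions overlapped for all 6. Leaving out HC EE 2 took Gm23935 to 1.01, Mir6236 to 1.05 and Lars2 to 0.69. In the separate libraries of the minocycline experiment, described below, CT010467.1 differed in the same direction (1.10, edgeR adjusted p = 0.000196), as did Mir6236 (1.28, edgeR adjusted p = 0.0473), while Gm23935 (0.42), Gm24187 (0.44), Lars2 (0.03) and Rn7sk (0.27) did not pass there. In that experiment region and a processing difference of the PFC libraries cannot be told apart, as set out below. RNA quality was not measured here, and whether it or these RNA features bear on the other results was not tested.

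**Figure D3:**
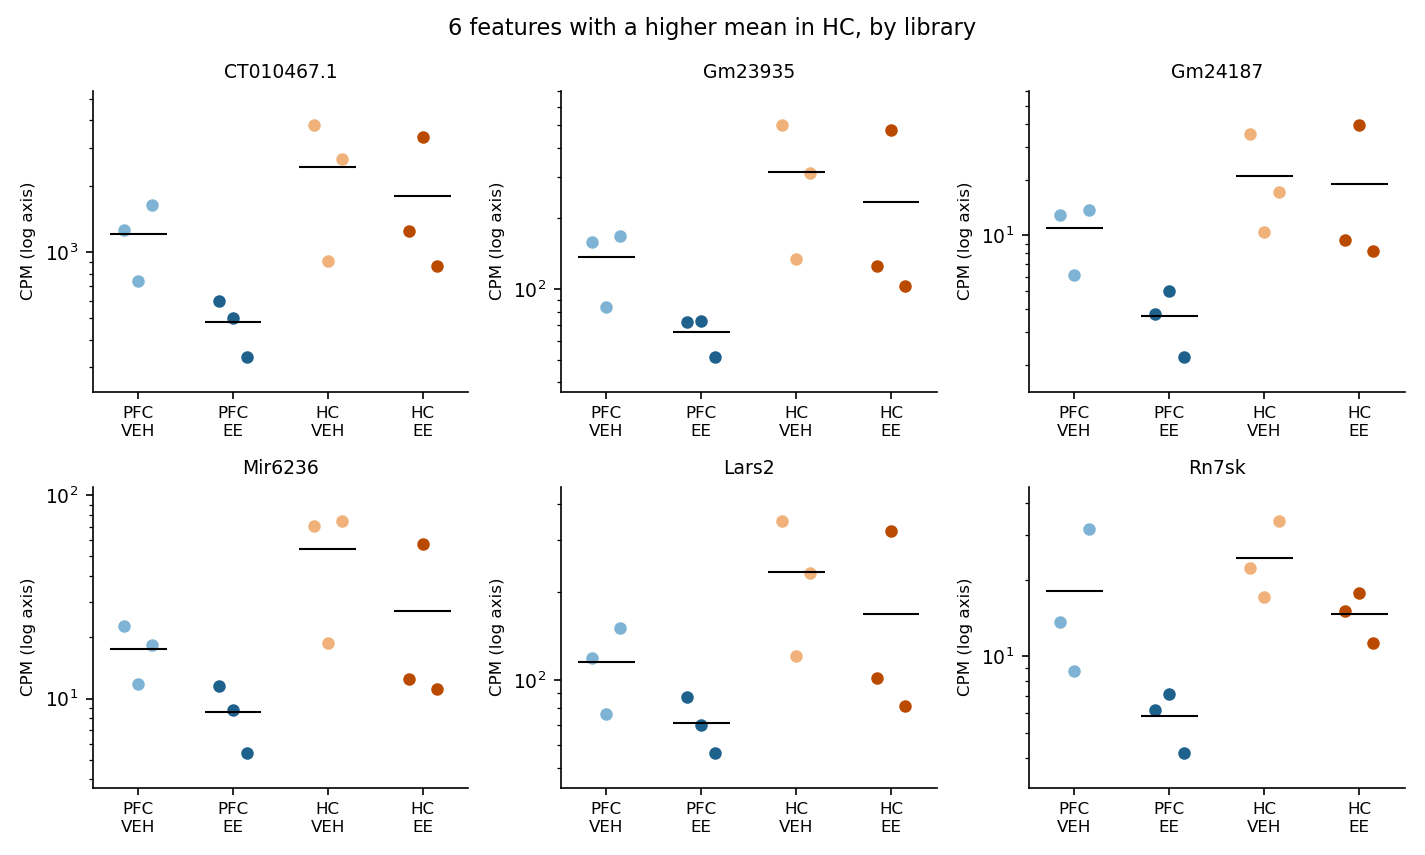
Level (CPM, log axis) of CT010467.1, Gm23935, Gm24187, Mir6236, Lars2 and Rn7sk in the 12 libraries, by region and treatment, with points in replicate order and a bar at each group's mean. High values sit in HC VEH 1, HC VEH 3 and HC EE 2 for the first 5 features, and PFC EE holds the lowest mean in all 6 panels.

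Genes encoded by the mitochondrial genome had a median log2 difference of 0.45 over the 8 of 13 that were tested, with 7 above 0. The other 5, among them mt-Co2 and mt-Co3, had at most 9 counts in any library. The summed level was 17910 CPM in HC VEH 3, against 4703 to 9606 CPM in the other HC libraries and 4530 to 8039 CPM in PFC. Without HC VEH 3 the median was 0.12. mt-Nd5, a complex I subunit, was at 2243 CPM in that library and at 585 to 1022 CPM in the other HC libraries, against 632 to 727 CPM in PFC. Its difference was 0.47 (95% interval −0.09 to 1.03). For mt-Nd6, another complex I subunit, the difference was 0.58 (95% interval −0.13 to 1.29) and HC VEH 3 was highest as well, at 844 CPM.

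Genes of neurons, which could carry a regional signature into a sort, did not separate the regions. Of 18 genes typical of hippocampal excitatory neurons 9 passed the count filter, with 6 above 0 and a median of 0.09; of 18 typical of cortical excitatory neurons 14 passed, with 12 above 0 and a median of 0.12. Prox1 and Tbr1 were chosen after their values were seen. Prox1, a transcription factor of dentate granule cells that other cells also express, was at 21.7 to 31.2 CPM in HC and 17.0 to 33.6 CPM in PFC. Tbr1, a transcription factor of deep-layer cortical neurons, was under 1 CPM in every library. Pan-neuronal genes summed to 16.3 to 31.5 CPM in HC and 11.7 to 44.2 CPM in PFC. Emx2, a patterning factor of the dorsal telencephalon, was at 0.44 to 1.165 CPM in HC and 0.14 to 0.88 CPM in PFC, a difference of 1.005 (95% interval 0.0010 to 2.01, edgeR unadjusted p = 0.0498) at a level near 1 CPM or below. Of 17 telencephalic patterning genes tested, 15 were above 0 (median 0.29). Over the leave-outs the median ran from 0.205 without PFC EE 1 to 0.64 without PFC EE 2, with 0.52 without PFC VEH 1. Within VEH alone 7 of the 17 were above 0 (median −0.0625), and within EE alone 15 were (median 0.605). Over 9 alternatives other than leave-outs of 1 library the median over both treatments ran from 0.08 to 0.44. No gene of these lists thus checks the region label.

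Glial and vascular genes had medians above 0, at low levels. Of 13 endothelial and mural genes tested, 12 were above 0, with a median of 0.46, and 4 had an unadjusted p under 0.05, against 2.09% of all genes. Abcb1a, the P-glycoprotein efflux pump of the blood-brain barrier, was at 3.23, 6.14 and 10.8 CPM in the lowest, median and highest HC library and at 2.92 to 5.86 CPM in PFC (0.57, 95% interval 0.07 to 1.07). Flt1, a VEGF receptor, was at 10.1 to 27.9 CPM in HC and 8.05 to 23.4 CPM in PFC (0.62, 95% interval 0.03 to 1.21), and 5 of the 6 PFC libraries lay at or below 11.6 CPM. The Flt1 difference was 0.37 without HC VEH 3 and 0.12 with library quality weights in limma voom, where Abcb1a was at 0.25. Ptprb, an endothelial phosphatase outside the lists and chosen after its values were seen, averaged 13.2 ± 4.81 CPM in HC and 7.31 ± 2.98 CPM in PFC (SD, n = 6 each), a difference of 0.87 (95% interval 0.32 to 1.43). The summed endothelial and mural level was 120 to 202 CPM in HC and 99.7 to 163 CPM in PFC. The list median was 0.21 without HC VEH 3, 0.26 without HC EE 1 and 0.70 without PFC VEH 2. Over 9 alternatives other than leave-outs of 1 library it ran from 0.11 to 0.49.

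Of 12 astrocyte genes 11 were above 0 (median 0.26, 0.15 without PFC EE 1 and 0.06 at the lowest of 9 other alternatives). Slc1a2, the main astrocytic glutamate transporter, was the 1 at an unadjusted p under 0.05, at 130 to 346 CPM in HC and 121 to 219 CPM in PFC (0.37, 95% interval 0.03 to 0.72). Of 13 oligodendrocyte genes 12 were above 0 (median 0.45), with 0 at an unadjusted p under 0.05, and their summed level was 250 to 911 CPM in HC and 262 to 554 CPM in PFC. The oligodendrocyte median was 0.28 without HC EE 1, 0.30 without HC VEH 3 and 0.68 without PFC EE 2. Over 9 alternatives other than leave-outs of 1 library it ran from −0.02 to 0.51. These include a fit with a covariate built partly from the same genes. All 8 oligodendrocyte precursor genes that were tested were above 0 (median 0.52, and 0.32 without PFC EE 3); Sox10, a factor of the oligodendrocyte lineage, was at 1.33 to 12.3 CPM in HC and 1.21 to 6.62 CPM in PFC (0.79, 95% interval 0.10 to 1.49). Among myeloid and blood cells the medians were −0.10 for border-associated macrophages (3 of 15 above 0), 0.04 for neutrophils (8 of 14), 0.07 for monocytes (9 of 14), −0.07 for lymphocytes (3 of 8) and 0.0048 for erythroid genes (4 of 8). Leaving out 1 library turned the sign for 4 of these 5 lists: neutrophils ran from −0.26 (without HC VEH 1) to 0.54 (without PFC EE 1), monocytes from −0.12 (without PFC EE 3) to 0.48 (without PFC EE 1), lymphocytes from −0.18 (without HC VEH 1) to 0.02 (without PFC VEH 1) and erythroid genes from −0.25 (without HC EE 2) to 0.35 (without PFC EE 2). Ependymal genes (5 of 6 above 0, median 0.28), meningeal fibroblast genes (5 of 9, median 0.14), neuroblast and progenitor genes (9 of 10, median 0.14) and inhibitory neuron genes (5 of 5, median 0.33) had 0 members at an unadjusted p under 0.05. Single libraries moved these medians widely. The ependymal median ran from 0.08 (without PFC EE 1) to 0.72 (without PFC EE 2), the fibroblast one from −0.16 (without HC EE 1) to 0.27 (without HC EE 2), the neuroblast one from −0.00042 (without PFC VEH 3) to 0.49 (without PFC VEH 1) and the inhibitory neuron one from 0.08 (without PFC VEH 3) to 0.97 (without PFC VEH 1).

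The comparison was then made within each treatment, where the 2 differences share no library. Within VEH 0 genes (0%) passed the adjusted test by edgeR and 0 by DESeq2, with 338 (2.1%) at an unadjusted p under 0.05 by edgeR and 413 by DESeq2. Within EE edgeR called 0 genes (0%), with 678 (4.21%) at an unadjusted p under 0.05. DESeq2 called 1 gene within EE, Gm3791 (log2 difference −3.27, DESeq2 adjusted p = 0.0456), and had 840 at an unadjusted p under 0.05.

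The 2 sets of differences did not resemble each other. Over the 8706 genes with a mean of at least 10 CPM, the differences within VEH and within EE had the same sign for 52.5%, a Spearman correlation of 0.02 and a Pearson correlation of −0.12 across genes, which are not independent replicates. At an unadjusted p under 0.05 in both treatments were 24 genes, 7.1% of the VEH set and 3.54% of the EE set, and 5 of the 24 had the same sign. Those 5, named after their values were seen, were Gm24270, Mir6236 and 4930412C18Rik, higher in HC, and Gm38102 and Gm6560, lower in HC.

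Whole groups of genes took opposite signs in the 2 treatments. All 22 immediate early genes, which are induced within minutes of a stimulus and also by tissue dissociation, were higher in HC within VEH (median 0.26) and lower in HC within EE (median −0.47). Their summed level was 14110 to 24980 CPM in PFC VEH, 19540 to 30080 CPM in HC VEH, 24830 to 39150 CPM in PFC EE and 21530 to 25640 CPM in HC EE. PFC EE 1 and PFC EE 3, at 39150 and 37950 CPM, stood above all other libraries. Fosb, an AP-1 subunit, differed by 0.52 (95% interval −0.31 to 1.35) within VEH and by −0.99 (95% interval −1.83 to −0.16) within EE. Zfp36, which destabilises cytokine mRNAs, differed by 0.28 (95% interval −0.12 to 0.67) and −0.55 (95% interval −0.94 to −0.15). Over both treatments the median was −0.11. The leave-outs of 1 library gave −0.22 (without PFC VEH 3) to −0.02 (without PFC EE 1), and 9 other alternatives gave −0.11 to 0.04. In the main fit 0 of 22 were above 0. Within EE 5 had an unadjusted p under 0.05, against 4.21% of all genes, and within VEH 0, against 2.1% of all genes.

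Markers of other cell types reversed as well. All 14 choroid plexus genes were lower in HC within VEH (median −1.97) and higher in HC within EE (median 1.37), with 0 at an unadjusted p under 0.05 in either. Their summed level was 6.55, 6.50 and 312 CPM in HC VEH 1, 2 and 3 and 8.01, 894 and 939 CPM in PFC VEH 1, 2 and 3. In EE it was 2767, 774 and 1535 CPM in HC and 23.4, 1542 and 305 CPM in PFC. The libraries of 1 group thus differed from each other by up to 2 orders of magnitude, and Ttr, the transthyretin secreted by the choroid plexus and chosen after its values were seen, ran from 0.099 CPM in PFC VEH 1 to 1873 CPM in HC EE 1. Over both treatments the choroid plexus median was −0.33. It ran from −2.19 without HC VEH 3 to 0.68 without PFC EE 2 and was 0.17 and 0.36 in the 2 fits with a replicate block, so this list has no stable direction in these libraries.

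Oligodendrocyte genes were below 0 within VEH for 12 of 13 (median −0.23) and above 0 within EE for 13 of 13 (median 1.13), where 8 had an unadjusted p under 0.05, against 4.21% of all genes. Astrocyte genes followed the same order, with 3 of 12 above 0 within VEH (median −0.14) and 12 of 12 within EE (median 0.70; 7 at an unadjusted p under 0.05). Endothelial and mural genes had medians of 0.09 within VEH and 0.96 within EE, with 0 and 5 members at an unadjusted p under 0.05.

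Neutrophil genes went the other way, with 13 of 14 above 0 within VEH (median 0.75) and 0 of 14 within EE (median −0.71), and 0 members at an unadjusted p under 0.05 in either. Their summed level was 1844, 1402 and 1545 CPM in PFC VEH, 3023, 2243 and 1051 CPM in HC VEH, 4034, 2126 and 1443 CPM in PFC EE and 1486, 1923 and 1775 CPM in HC EE. PFC EE 1 and HC VEH 1 were the highest libraries. Border-associated macrophage genes were above 0 for 0 of 15 within VEH (median −0.35) and for 12 of 15 within EE (median 0.25). MHC class II genes had medians of −0.82 within VEH and 0.10 within EE; Cd74, the invariant chain, averaged 280 ± 62.5 CPM in HC VEH and 508 ± 70.4 CPM in PFC VEH (SD, n = 3 each), against 610 ± 70.9 CPM in HC EE and 604 ± 431 CPM in PFC EE (SD, n = 3 each). The mitochondrially encoded genes had a median of 0.89 within VEH, where HC VEH 3 lies, and 0.03 within EE. What part the share of other cells has in the differences of the microglial genes was not tested.

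**Figure D4:**
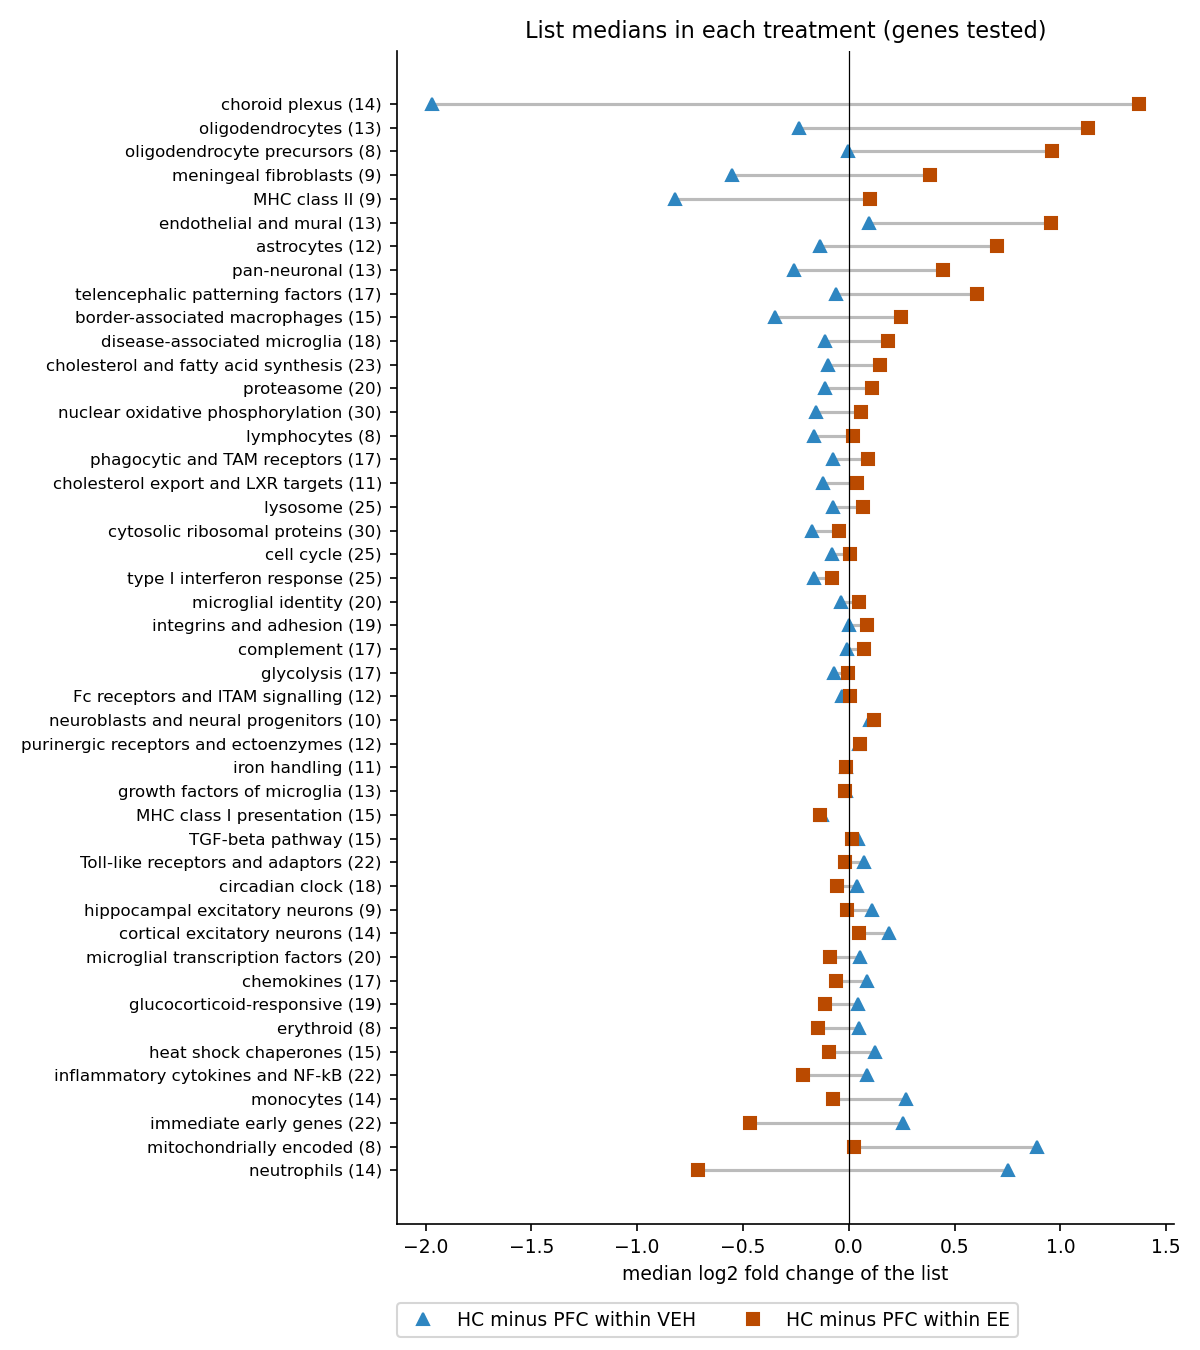
Median log2 fold change of HC over PFC for each gene list with at least 8 genes tested (number in brackets), within VEH (triangles) and within EE (squares), ordered by the change from one to the other. Choroid plexus runs from −1.97 to 1.37 and neutrophils from 0.75 to −0.71, while microglial identity stays between −0.04 and 0.05.

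**Figure D5:**
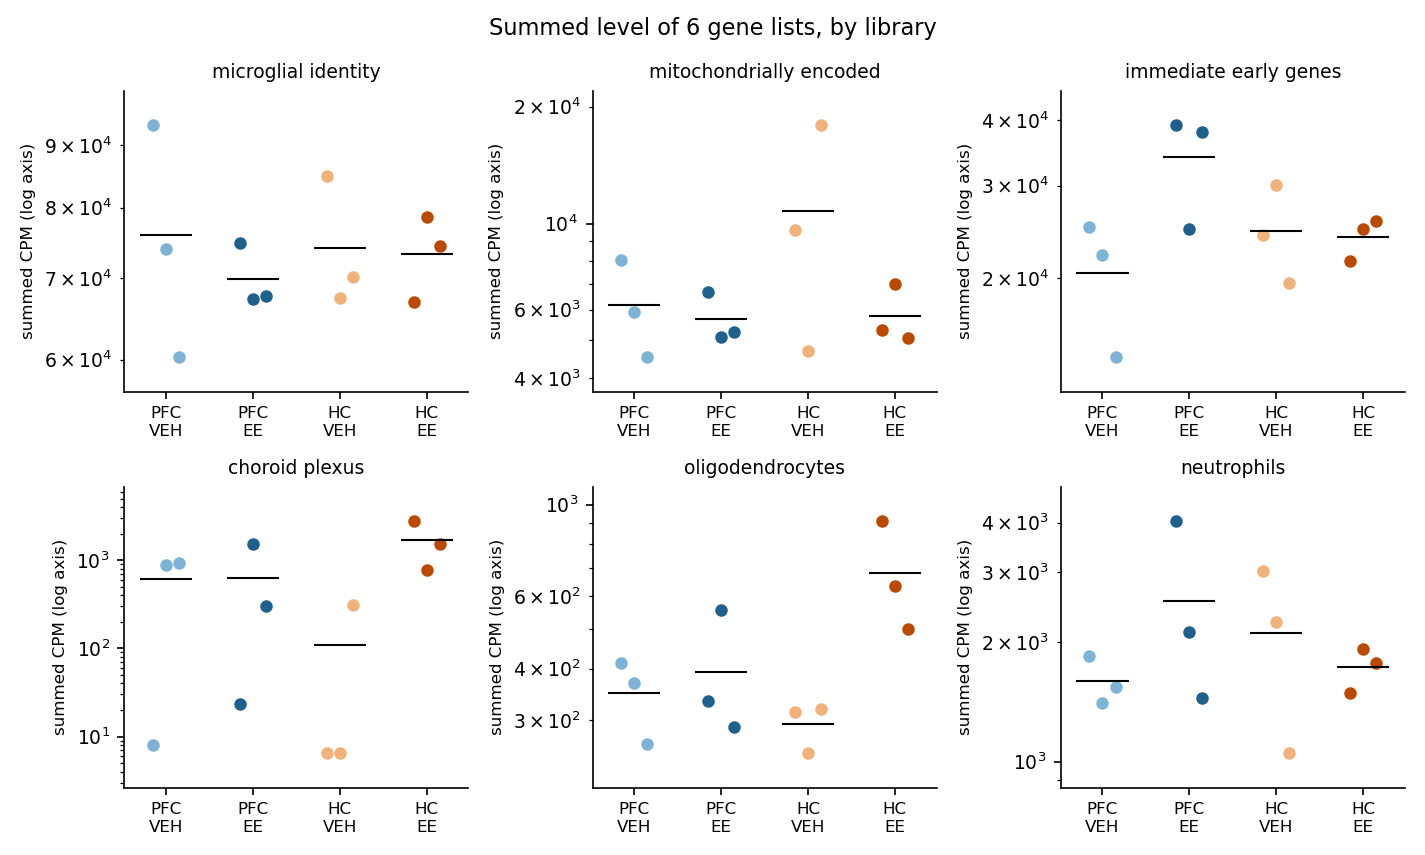
Summed level (CPM, log axis) of 6 gene lists in the 12 libraries, by region and treatment, with points in replicate order and a bar at each group's mean. Microglial identity genes keep to 60290 to 93500 CPM, mitochondrially encoded genes are highest in HC VEH 3, and choroid plexus genes spread from 6.50 to 2767 CPM.

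The median of the microglial identity genes was close to 0 in both treatments. Within VEH 6 of 20 were above 0 (median −0.04) and within EE 18 of 20 (median 0.05), and in neither treatment did any member have an unadjusted p under 0.05. Single members lay further out: Gpr34 averaged 926 ± 545 CPM in HC VEH and 569.8 ± 154 CPM in PFC VEH, against 511 ± 165 CPM in HC EE and 409 ± 51.3 CPM in PFC EE (SD, n = 3 each). Apoe differed by −0.44 (95% interval −0.89 to 0.0069) within VEH and by 0.50 (95% interval 0.06 to 0.95) within EE. It was at 1212, 962 and 1466 CPM in HC VEH, 1710, 1666 and 1559 CPM in PFC VEH, 2429, 1726 and 2636 CPM in HC EE and 1807, 1874 and 1108 CPM in PFC EE. HC VEH thus lay wholly below PFC VEH, while in EE the regions overlapped.

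The difference between the 2 treatments in the regional contrast was tested directly. By edgeR 0 genes passed (0%), with a smallest adjusted p of 0.999 and 669 (4.16%) at an unadjusted p under 0.05, and by DESeq2 0 passed, with a smallest adjusted p of 0.082 and 844 at an unadjusted p under 0.05. The opposite signs of the lists above are therefore a description of these libraries. At an unadjusted p under 0.05 in this edgeR test were 7 of 15 border-associated macrophage and 7 of 22 immediate early genes. So were 6 of 13 oligodendrocyte and 5 of 12 astrocyte genes. For choroid plexus it was 1 of 14, for neutrophils 0 of 14 and for MHC class II 0 of 9. These stand against 4.16% of all genes, and members of 1 list are not independent.

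Il1a, an alarmin cytokine of the interleukin-1 family, had the smallest p of this test. It was at 103, 114 and 122 CPM in HC VEH and at 69.4, 76.3 and 63.5 CPM in PFC VEH, with no overlap. In EE it was at 76.1, 111 and 80.9 CPM in HC and at 136, 92.5 and 149 CPM in PFC, where the regions overlapped. The log2 difference of HC over PFC was 0.70 (95% interval 0.32 to 1.07) within VEH and −0.49 (95% interval −0.86 to −0.12) within EE, and the difference between these was −1.19 ± 0.25 (standard error; edgeR unadjusted p = 0.000277, adjusted p = 0.999). It passed when no filter on low counts was applied (edgeR adjusted p = 0.000176), one of 8 genes that did so. That adjusted p, over 28653 genes, lies below the unadjusted p of the main fit. Dropping the filter thus changed the fit of a gene that had passed it, and the reason was not tested. Il1a over both treatments was at 101 ± 18.7 CPM in HC and 97.7 ± 36.0 CPM in PFC (SD, n = 6 each).

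Next were Cttn and Dmrtb1, at a few CPM. Cttn, the actin-binding protein cortactin, averaged 1.12 ± 0.16 CPM in HC VEH, 3.22 ± 1.5 in PFC VEH, 5.25 ± 2.49 in HC EE and 1.98 ± 0.90 in PFC EE (SD, n = 3 each), a difference between treatments of 2.92 ± 0.66 (standard error). Dmrtb1, a DM-domain transcription factor, averaged 2.29 ± 0.79, 3.70 ± 0.70, 3.15 ± 1.26 and 0.81 ± 0.33 CPM in the same order (SD, n = 3 each), a difference of 2.65 ± 0.60 (standard error). Cttn also passed without the filter (edgeR adjusted p = 0.00977).

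In 15 genes all 6 HC libraries lay above, or all 6 below, all 6 PFC libraries, which is 0.0932% of those tested; 8 were higher and 7 lower in HC. They are named after their values were seen. The best measured of the higher ones were Xrcc4, a DNA ligase IV cofactor, at 9.18 to 11.2 CPM in HC and 5.42 to 8.90 CPM in PFC (0.41, 95% interval 0.13 to 0.69), and Patj, a polarity scaffold, at 8.30 to 10.2 CPM in HC and 6.92 to 8.26 CPM in PFC (0.29, 95% interval 0.04 to 0.54). Gdf10, a ligand of the TGF-beta superfamily, was at 0.50 to 1.23 CPM in HC and 0.08 to 0.45 CPM in PFC (1.48, 95% interval 0.43 to 2.54). Of the lower ones, Znhit1, a subunit of the SRCAP chromatin remodeller, was at 18.6 to 20.5 CPM in HC and 20.6 to 27.9 CPM in PFC (−0.24, 95% interval −0.45 to −0.04), and Smarcd3, a BAF complex subunit, at 2.55 to 3.68 CPM in HC and 3.75 to 5.02 CPM in PFC (−0.42, 95% interval −0.81 to −0.04). None of these passed the adjusted test of edgeR. Among 16091 genes some separate in this way without any regional difference, so separation alone does not mark a gene as regional.

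Spry4, an inhibitor of receptor tyrosine kinase signalling, had the smallest p of all genes and is named for that. It was at 0.90, 0.93 and 0.85 CPM in HC VEH and 0.61, 1.30 and 1.28 CPM in HC EE, against 0.15, 0.05 and 0.04 CPM in PFC VEH and 0.20, 0.77 and 0.25 CPM in PFC EE. PFC EE 2 alone reached the HC range. The log2 difference was 2.41 (95% interval 1.32 to 3.50, edgeR unadjusted p = 0.000325), at a level near 1 CPM or below, and it missed the threshold after adjustment by edgeR and by DESeq2 (adjusted p = 0.158).

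The same regional comparison in the minocycline experiment of the series gave a different picture. Its 15 libraries (7 PFC and 8 HC, of naive mice, stressed mice and stressed mice given minocycline, with 7.87 M to 15.3 M counts) were fitted separately. There edgeR called 749 of 14100 genes at an adjusted p under 0.05 (5.31%), 493 higher and 256 lower in HC, and DESeq2 called 1180. Of 737 of these genes that were also tested in the enrichment table, 339 (46%) had the same sign there, and over the genes tested in both tables the Spearman correlation of the 2 differences across genes was −0.03. Of the 222 genes called with more than a 4-fold difference, 211 were tested in the enrichment table and 14 of them lay beyond 2-fold there.

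Some of the genes at the top of the minocycline comparison stood at one level in all HC libraries and both regions of the enrichment experiment, and at another in the minocycline PFC libraries; they were chosen after their values were seen. Trf, the iron carrier transferrin, was at 99.5 to 121 CPM in the minocycline PFC libraries and 1820 to 2290 CPM in the minocycline HC libraries, and averaged 1820 CPM in HC and 1810 CPM in PFC of the enrichment experiment. Rnaset2a, a ribonuclease gene, was at 115 to 149 CPM in the minocycline PFC libraries and 0.28 to 1.13 CPM in the HC libraries, and averaged 1.34 CPM in HC and 1.25 CPM in PFC of the enrichment experiment. Hgs, an endosomal sorting protein, was at 0 to 0.262 CPM in the minocycline PFC libraries and 98.5 to 112 CPM in the HC libraries, and averaged 94.2 CPM in HC and 95.6 CPM in PFC of the enrichment experiment. Qser1 was at 31.9 to 40.6 CPM in the minocycline PFC libraries and at 0 in every other library of both tables. Such steps, the same in all 7 PFC libraries, could also come from another annotation or counting step for these libraries; the annotation of each table is not given in the sources used here and this was not tested. Region and such a processing difference cannot be told apart among the 749 calls.

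Values of gene groups in the 2 experiments are given side by side with the same limit, since all the minocycline PFC libraries enter them, and no test of their difference was made. The shares called there are to be read against the 5.31% of all genes. Endothelial and mural genes had a median of 1.14 in the minocycline experiment, with 7 of 13 called higher in HC, and 0.46 in the enrichment experiment, with 0 called. Flt1 differed by 1.29 (edgeR adjusted p = 0.00645) and Ptprb by 1.55 (edgeR adjusted p = 0.00686) in the former, against 0.62 and 0.87 in the latter. Choroid plexus genes had a median of 6.73 with 11 of 14 called higher in HC in the minocycline experiment and −0.33 with 0 called here. Immediate early genes had a median of −0.61 with 4 of 22 called lower there and −0.11 here. The 20 microglial identity genes had a median of 0.02 there, with 0 called, and of −0.0022 here. Cx3cr1 differed by 0.02, Itgam by −0.08, Csf1r by 0.09, Tmem119 by 0.11 and P2ry12 by −0.12 in the minocycline experiment, none of them called by edgeR. Il1b was called lower in HC there (−0.67, edgeR adjusted p = 0.0216) and differed by −0.06 here.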

How the data were processed

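Strand-specific libraries of polyadenylated RNA from FACS-sorted CD11b+ cells were sequenced with paired reads, per the labels. Each experiment has 1 deposited table of raw counts per gene, as the authors made them. Per the submitters' processing notes, the tools were Trimmomatic 0.36, STAR 2.6.1b, Picard 2.17.1, featureCounts 1.5.3 and DESeq2 1.24.0, and the builds mm10 and GRCm38; the annotation release, the strand setting and the handling of duplicates and multiply mapped reads are not given in the sources used here.

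The members and gene lists were chosen with earlier results of these data known. Identifiers were matched to GENCODE M21 symbols (55154 of 55421). Genes with at least 10 counts in at least 3 libraries entered an edgeR 4.0.16 quasi-likelihood fit (TMM scaling, 1 mean for each of the 4 groups, no covariate) in R 4.3.3; the contrasts were HC minus PFC with equal weight per treatment, within VEH, within EE, and the difference between these. All genes tested entered the Benjamini-Hochberg adjustment, with a threshold of 0.05, and 95% intervals came from the fit. Log2 CPM for correlations and components used a prior count of 2. The minocycline table was fitted separately in the same way. The fit was checked on simulated data.

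The 49 lists hold 774 genes, and each is described by the median and counts of its tested members. Named genes are Cx3cr1, P2ry12, Tmem119, Itgam, Csf1r, Apoe, Il1b and Tnf, up to 2 members of smallest p from each list and the 3 genes of smallest p in the difference between treatments; others are said to be chosen after their values were seen. A few members of the lists are not reported here. Alternatives were DESeq2 1.42.0 (size factors, and its Wald test), no filter, filterByExpr, replicate blocks, a covariate of other-cell markers, fits of 1 treatment alone, each library left out, and, added after seeing the data, limma 3.58.1 voom with quality weights and leaving out PFC EE 1 with HC VEH 3. Figures used matplotlib.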

Additional observations from a re-analysis of the deposited data

Results flagged for a closer look

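In some of the values given above, 1 library stood apart from the other 5 of its region: its gap to the nearest of them, as a share of the range of the 6, exceeded Dixon's 95% critical value. This was so in 12 of 78 sets of 6 libraries examined. Chance gives about 1 in 20 for normally distributed values of sets not chosen by their values. Here the values were CPM without a log, and some genes had been chosen after their values were seen. Genes of 1 list are not independent, and the 6 libraries mix 2 treatments. The 12 of 78 is therefore no measure of an excess over chance. The genes mt-Nd1, mt-Nd2, S100a9 and H2-Q6 were chosen after their values were seen. HC VEH 3 was high for the summed mitochondrially encoded genes (17910 CPM, others 4703 to 9606), mt-Nd1 (2239 CPM, others 515 to 1130), mt-Nd2 (1579 CPM, others 303 to 641) and Gpr34 (1520 CPM, others 403 to 810). HC VEH 1 was high for S100a9, a neutrophil calprotectin subunit (1066 CPM, others 103 to 428). HC EE 2 was high for H2-Q6, a class I gene (27.4 CPM, others 6.79 to 11.6).

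PFC EE 2 was high for H2-Q6 (57.8 CPM, others 10.7 to 21.8) and Spry4 (0.773 CPM, others 0.039 to 0.245). PFC EE 1 was high for the summed neutrophil genes (4034 CPM, others 1402 to 2126). PFC VEH 1 was high for P2ry12 (3749 CPM, others 2570 to 2997), PFC VEH 2 for Flt1 (23.4 CPM, others 8.05 to 11.6) and PFC VEH 3 for Rn7sk (31.7 CPM, others 4.17 to 13.6).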

How the results depend on the processing

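The count of genes called between HC and PFC stayed at 0 under every alternative run and in all 12 fits that left out 1 library. With no filter on low counts edgeR called 1 gene within VEH, 4 within EE and 8 in the difference between treatments, and DESeq2 called 1 within EE; the leave-outs gave 0 to 0 in these 3 comparisons. In the minocycline experiment the 749 genes became 1180 by DESeq2, 1191 without the filter and 434 with a replicate block of treatment and number, and ranged from 277 (without PFC CUMS 1) to 1000 (without PFC CUMS_M 3); the cause was not tested. In the enrichment table libraries of equal number in HC and PFC deviated together in 2 of 6 pairs only (r above 0.1; range −0.275 to 0.429), so the numbers were not taken as pairs, 2 of 6 HC libraries correlated best with their own number, and both replicate block fits called 0 genes. Differences near 0 changed sign. With the covariate Cx3cr1 was −0.0364 and Apoe −0.129; without PFC EE 1 and HC VEH 3 Tmem119 was 0.0295, Csf1r 0.0534 and Il1b 0.0907; with quality weights Tmem119 was 0.0128 and Csf1r 0.0035. Over the leave-outs Cx3cr1 ran from −0.0399 to 0.0648, Tmem119 from −0.137 to 0.0153, Csf1r from −0.0748 to 0.0172, Apoe from −0.0655 to 0.113 and Il1b from −0.124 to 0.0348. Quality weights ran from 0.359 (PFC VEH 1) to 6.38 (PFC VEH 2). Intervals were wider at low levels: 89.9% of genes with a mean of at least 1 CPM had one within 2-fold, against 73.8% of all genes tested. For genes whose interval reached beyond 2-fold, a regional difference of that size could be missed at this depth and number of libraries.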
